A study of Mus musculus with 9 samples.

Results

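The integrated stress response and the unfolded protein response were followed here through 32 named genes in mouse neural stem cells depleted of the cohesin subunit RAD21. The 32 genes were taken by symbol from a table of 24503 gene rows. All 32 were present, and all 32 passed the filter on low counts that left 13560 genes for testing. They were sorted by role into 9 stress regulators and early targets, 11 amino acid genes of the ATF4 programme and 12 endoplasmic reticulum (ER) genes of the unfolded protein response. The cells were primary cultures from embryonic cortex at E13.5, grown with FGF and EGF, and every group carried the Phf2flox/flox genotype, including the control. The study compared 3 conditions with 3 RNA-seq libraries each: cells given the hairpin shRad21_2, cells given the hairpin shRad21_1, and cells given the non-targeting hairpin shNT. No time after infection is stated. The labels do not say whether the 3 libraries of a group came from separate cultures or animals, so p-values measure the spread between these libraries, which may be technical.

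In the integrated stress response, several kinases phosphorylate the translation factor eIF2, which lowers general protein synthesis and favours translation of ATF4 mRNA. ATF4 then switches on genes for amino acid synthesis, amino acid uptake and further stress factors such as CHOP, the product of Ddit3. The unfolded protein response is triggered by misfolded protein in the ER, and its ATF6 and IRE1-XBP1 branches induce chaperones, while its PERK branch feeds into ATF4 through eIF2. ATF4 is controlled largely at translation, so its mRNA level is an incomplete measure of its activity.

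The libraries held 34780003 to 46644607 counts. Rad21 itself had 82.0, 91.2 and 82.5 CPM (read counts scaled to the same library total) in the shRad21_2 libraries and 187, 174 and 178 CPM in the shRad21_1 libraries, against 531, 449.8 and 456 CPM in the shNT libraries. Its log2 fold change against shNT was -2.49 ± 0.09 (SE) for shRad21_2 and -1.41 ± 0.09 for shRad21_1, with adjusted p of 2.83e-07 and 0.000166 in edgeR's quasi-likelihood test with Benjamini-Hochberg adjustment, the test used throughout. The hairpins therefore differed in how far they lowered Rad21. In both the shNT and the shRad21_1 group, replicates 2 and 3 lay much closer to each other than to replicate 1: the mean chi-square per gene was 2.92 and 2.07 for those pairs, and 19.2 to 57.8 for every other pair within a group. Neural stem cell markers were plentiful, with all 10 detected in every library and a summed level of 7548 to 8552.5 CPM under shRad21_2, 7112 to 8454 CPM under shRad21_1 and 8668 to 9037 CPM under shNT. Within that list, 3 markers rose and 3 fell under shRad21_2 against shNT: Nes averaged 2490.1 CPM under shRad21_2 and 1218 CPM under shNT, and Slc1a3 averaged 585 CPM under shRad21_2 and 1129 CPM under shNT, both named after their values were seen. The 10 astrocyte markers summed to 340.4 to 366 CPM under shRad21_2, 511 to 969.5 CPM under shRad21_1 and 1092 to 1196 CPM under shNT, and 8 of the 10 were called lower under shRad21_2. The 10 oligodendrocyte lineage markers summed to 2694.5 to 3088 CPM under shRad21_2, 3092 to 3229.8 CPM under shRad21_1 and 2757 to 2888 CPM under shNT, and the 10 neuronal markers to 1065.5 to 1179 CPM, 1152 to 1235 CPM and 1203 to 1327 CPM in the same order. These sums rest largely on Olig1, Olig2 and Map2, and the other markers moved differently. Of 8 tested oligodendrocyte lineage markers, 1 rose and 6 fell under shRad21_2 against shNT, with a median log2 fold change of -1.59, and of 8 tested neuronal markers 1 rose and 5 fell, with a median of -1.51. Beside these marker counts, 21.1% of all tested genes were called higher and 22.5% lower under shRad21_2 against shNT. Microglial markers summed to at most 3.16 CPM, and Cx3cr1, Aif1 and C1qa were at 0 in all 9 libraries.

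Under shRad21_2, 9 of the 32 genes changed against shNT, 2 upward and 7 downward. That is 28.1% of the genes, below the 43.6% of all tested genes called in this comparison. The serine synthesis genes Psat1 and Phgdh rose. The transcription factor genes Cebpb, Ddit3 and Xbp1, the serine synthesis gene Psph and the ER genes Calr, Pdia4 and Dnajb9 fell. Under shRad21_1, 0 of the 32 genes passed the same test against shNT, where 9.82% of all tested genes were called, 4.19% higher and 5.63% lower. At an unadjusted p below 0.05, 6 of the 32 passed in that comparison, beside 26.5% of all tested genes. DESeq2 called 3 of the 32, all lower, beside 8.35% of all genes lower in that test, and limma-voom called 0, beside 10.7% of all genes in either direction. Between the hairpins, shRad21_2 against shRad21_1, 3 of the 32 were higher and 5 lower, which is 25% of the genes beside 26.3% of all tested genes. By ranges alone, all 3 shRad21_2 libraries lay above all 3 shNT libraries for 3 of the 32 genes and below them for 6, beside 27.3% and 28.6% of all tested genes, or 55.9% in either direction. For shRad21_1 against shNT the counts were 2 above and 4 below, beside 20.3% and 19.9% of all tested genes, or 40.2% in either direction. Between the hairpins they were 8 above and 7 below, beside 19.4% and 19.8% of all tested genes, or 39.2% in either direction. At an unadjusted p below 0.05, 12 of the 32 genes passed under shRad21_2 against shNT and 11 between the hairpins, beside 52.1% and 39.5% of all tested genes. Counted over both directions, the share of the 32 genes was at or below that of all tested genes in each of these counts, apart from the ranges between the hairpins. The comparisons share libraries, so they are not independent of each other. The markers of astrocytes, the oligodendrocyte lineage, neurons and neural stem cells moved in the same comparisons, as given above, and their part in these results was not tested. In bulk RNA, fewer cells of a type and less RNA per cell cannot be told apart.

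**Figure D1:**
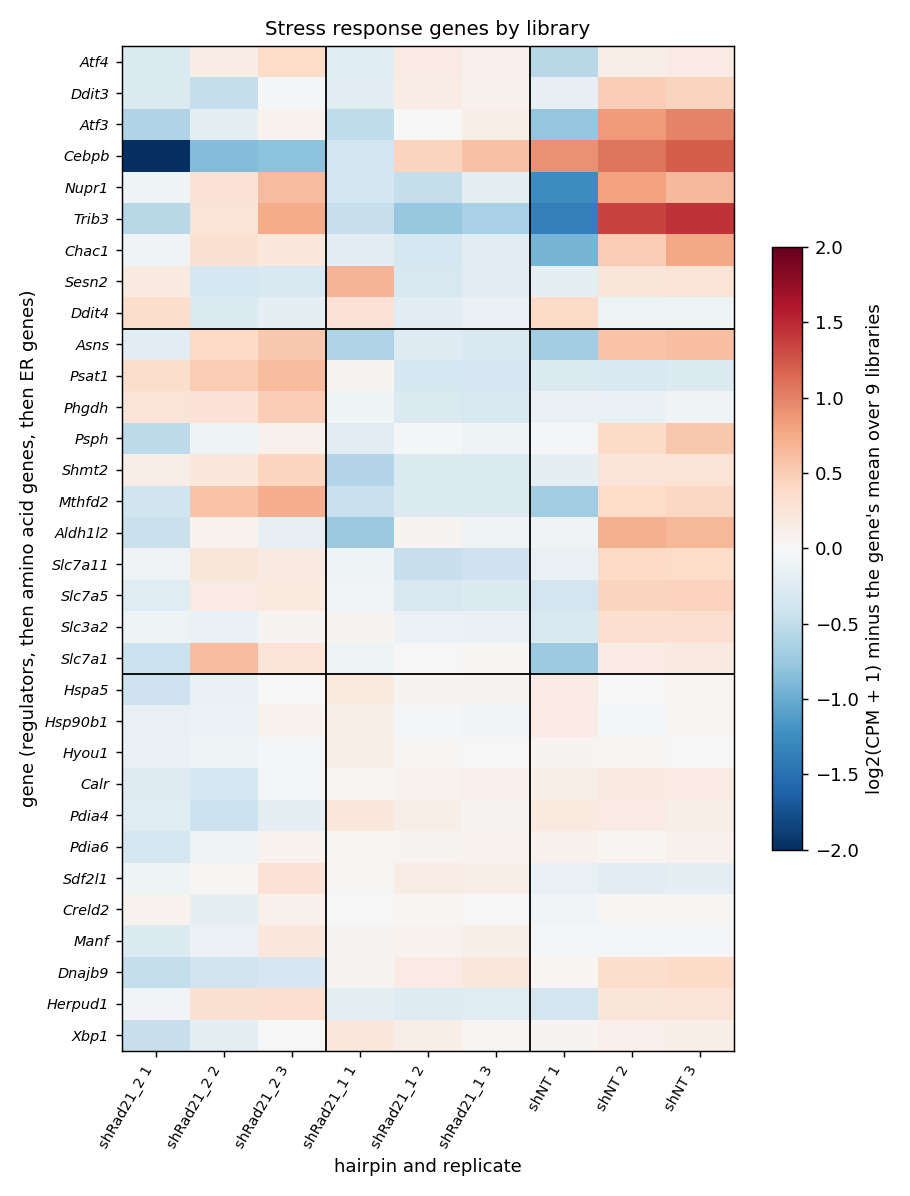
Level of each of the 32 genes in each library, as log2(CPM + 1) minus the mean of that gene over the 9 libraries, with genes grouped by role and libraries ordered shRad21_2, shRad21_1, shNT. The shNT replicate 1 column is low for Trib3, Nupr1, Atf3 and Asns, whereas most ER genes, apart from Herpud1 and Dnajb9, vary little across the shNT libraries.

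Among the regulators, Atf4 mRNA, which encodes the central factor of the response, had 204, 278 and 324 CPM in the shRad21_2 libraries and 211, 280.4 and 269 CPM in the shRad21_1 libraries, against 169.6, 275 and 281 CPM in the shNT libraries. The groups overlapped, and no comparison called the gene. Cebpb encodes a bZIP transcription factor that can dimerise with ATF4 and CHOP and lies on chromosome 2 at 167688915-167690418 (mm10, GENCODE). It had 1.13, 4.11 and 4.28 CPM under shRad21_2 and 6.14, 11.7 and 13.0 CPM under shRad21_1, against 16.5, 18.7 and 20.6 CPM under shNT. The 3 groups did not overlap, and the levels were ordered as those of Rad21. The log2 fold change of Cebpb against shNT was -2.57 ± 0.43 under shRad21_2 (adjusted p = 0.00116) and -0.86 ± 0.40 under shRad21_1 (adjusted p = 0.205). Between the hairpins it was -1.71 ± 0.43 (adjusted p = 0.0163). Without shRad21_1 replicate 3 the Cebpb difference between the hairpins was -1.51 (adjusted p = 0.0546). Of the exonic bases of Cebpb, 20.7% are shared with Tmem189 on the opposite strand, and it is not stated whether counting used the strand, so reads from these bases cannot be told apart.

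Ddit3, whose product CHOP is associated with cell death under prolonged ER stress, averaged 6.74 ± 1.18 CPM under shRad21_2, 8.30 ± 1.21 CPM under shRad21_1 and 10.2 ± 2.59 CPM under shNT (SD, n = 3 each). It fell under shRad21_2 with a log2 fold change of -0.60 ± 0.21 (adjusted p = 0.043), although the highest shRad21_2 library, at 7.96 CPM, lay above the lowest shNT library, at 7.23 CPM. The Ddit3 call was lost, with adjusted p of 0.0531 to 0.154, when replicate 2 or 3 of shNT, 2 or 3 of shRad21_1, or 1 or 2 of shRad21_2 was left out. Ddit3 has 2 annotated loci in the GENCODE annotation, which adds uncertainty to its count. No other regulator was called. Sesn2, an inhibitor of mTORC1 signalling, averaged 62.2 ± 13.8 CPM under shRad21_2, 74.7 ± 31.4 CPM under shRad21_1 and 75.2 ± 12.9 CPM under shNT. Ddit4, the gene of the mTORC1 inhibitor REDD1, averaged 63.2 ± 16.1, 63.8 ± 12.6 and 67.5 ± 13.6 CPM in the same order of groups.

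The stress targets Trib3, Chac1, Atf3 and Nupr1 ranged widely within the shNT group. Trib3, a pseudokinase that restrains ATF4, had 2.06, 4.37 and 6.54 CPM under shRad21_2 and 2.28, 1.65 and 1.86 CPM under shRad21_1, against 0.742, 10.6 and 11.3 CPM under shNT. In shNT replicate 1 the gene lay below every library of the other groups, and in shNT replicates 2 and 3 above every one of them. Chac1, which degrades glutathione, had 2.70, 3.78 and 3.51 CPM under shRad21_2 and 2.34, 2.03 and 2.31 CPM under shRad21_1, against 1.04, 4.48 and 5.61 CPM under shNT. Atf3, a stress-induced bZIP factor, had 1.13, 1.88 and 2.40 CPM under shRad21_2 and 1.28, 2.27 and 2.55 CPM under shRad21_1, against 0.907, 4.86 and 5.48 CPM under shNT. The chromatin-associated stress factor gene Nupr1 repeated this shNT pattern, with 2.13, 3.02 and 4.11 CPM under shRad21_2 and 1.55, 1.39 and 1.91 CPM under shRad21_1, against 0.385, 4.79 and 4.17 CPM under shNT. The largest of these fold changes, -1.97 ± 0.75 on the log2 scale for Trib3 under shRad21_1, had an adjusted p of 0.129.

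**Figure D2:**
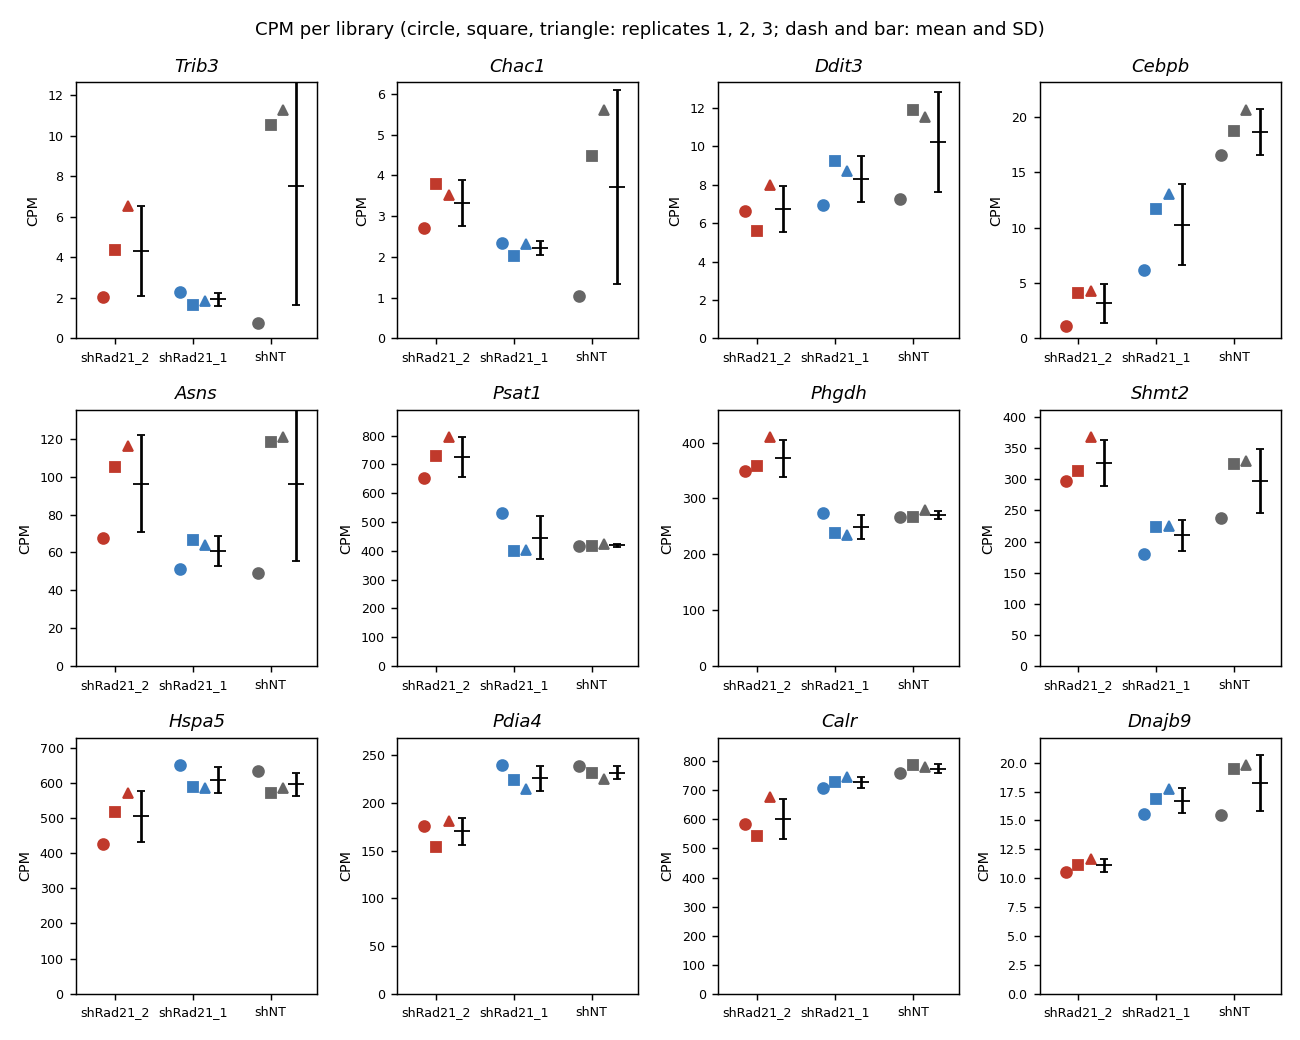
CPM of selected genes in each library, with groups from left to right shRad21_2, shRad21_1 and shNT, points for libraries and bars for the mean and SD (n = 3). Psat1 is high in all 3 shRad21_2 libraries, Cebpb is lowest under shRad21_2 and highest under shNT, and the shNT points of Trib3 lie far apart.

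Several of these genes carry a letter pattern of known ATF4 target promoters close to their start. RefSeq promoter windows (GRCm38.p6, from 250 bases before to 50 after a gene's start) were found for 28 of the 32 genes. The C/EBP-ATF response element, searched as TGATGNAA on both strands, occurred in the windows of 7 of these 28 genes, namely Atf3, Nupr1, Trib3, Chac1, Asns, Slc7a11 and Herpud1, and in 3.97% of all 32851 windows. These are 4 regulators, 2 amino acid genes and 1 ER gene. A match describes the letters only, not binding. The following stretches are shown because shNT replicate 1 was the lowest shNT library for each of these genes, as it was for most of the 32 genes. They run 5′ to 3′ on the strand of the gene with mm10 coordinates, and capitals mark the motif in either orientation. The Trib3 match lies past the annotated start and is not printed.
Chac1 chr2:119351029-119351076 (plus strand): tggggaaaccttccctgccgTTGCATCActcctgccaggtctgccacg
Atf3 chr1:191183416-191183463 (minus strand): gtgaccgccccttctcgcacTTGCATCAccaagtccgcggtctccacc
Nupr1 chr7:126625553-126625600 (minus strand): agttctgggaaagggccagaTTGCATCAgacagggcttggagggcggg
Asns chr6:7693210-7693252 (minus strand): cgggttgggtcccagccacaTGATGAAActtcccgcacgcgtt
Slc7a11 chr3:50443652-50443699 (minus strand): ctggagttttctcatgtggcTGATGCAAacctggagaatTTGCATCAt
Herpud1 chr8:94386297-94386344 (plus strand): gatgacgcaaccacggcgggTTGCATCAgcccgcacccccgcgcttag

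Among the 11 amino acid genes, the serine synthesis enzymes moved in different directions under shRad21_2. Psat1, the aminotransferase of the pathway, lies on chromosome 19 at 15904678-15947337. It had 653, 729 and 794 CPM under shRad21_2 and 532, 401 and 403 CPM under shRad21_1, against 418, 416 and 425 CPM under shNT. All shRad21_2 libraries lay above all libraries of the other groups. Its log2 fold change was 0.79 ± 0.12 against shNT (adjusted p = 0.000559) and 0.70 ± 0.12 against shRad21_1 (adjusted p = 0.00254). Phgdh, the dehydrogenase that opens the pathway, lies on chromosome 3 at 98313170-98339990. It had 349, 357 and 409 CPM under shRad21_2 and 274, 238 and 234 CPM under shRad21_1, against 266, 266 and 279 CPM under shNT. The shRad21_2 libraries again did not overlap the others, and the log2 fold changes were 0.46 ± 0.09 against shNT (adjusted p = 0.00239) and 0.58 ± 0.09 against shRad21_1 (adjusted p = 0.00163). Psph, the phosphatase of the last step, had 22.7, 31.0 and 35.1 CPM under shRad21_2 and 28.1, 32.04 and 31.1 CPM under shRad21_1, against 32.4, 43.5 and 48.4 CPM under shNT. It fell under shRad21_2, with a log2 fold change of -0.49 ± 0.18 (adjusted p = 0.0472), with 1 shRad21_2 library above the lowest shNT library, and 10.4% of its exonic bases are shared with Cct6a. The Psph call was lost on leaving out the same libraries as for Ddit3, with adjusted p of 0.0606 to 0.178.

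The mitochondrial folate enzymes follow serine in one-carbon metabolism. Shmt2, which splits serine to glycine in mitochondria, had 296, 313 and 367 CPM under shRad21_2 and 181, 224 and 225 CPM under shRad21_1, against 239, 324 and 329.6 CPM under shNT. It was higher under shRad21_2 than under shRad21_1, by 0.63 ± 0.14 on the log2 scale (adjusted p = 0.0101). Every shRad21_1 library lay below every shNT library, but the log2 fold change of -0.50 ± 0.14 did not pass the test (adjusted p = 0.0513). Mthfd2, the next folate enzyme, averaged 118 ± 43.7 CPM under shRad21_2, 72.5 ± 4.85 CPM under shRad21_1 and 98.5 ± 37.0 CPM under shNT, with its lowest value in replicate 1 of each group. Aldh1l2, a mitochondrial formyl-folate dehydrogenase, averaged 49.7 ± 9.15 CPM under shRad21_2, 47.9 ± 13.1 CPM under shRad21_1 and 78.1 ± 21.6 CPM under shNT. Its fold changes against shNT, -0.65 and -0.70 on the log2 scale, had adjusted p of 0.0552 and 0.103, and 14.1% of its exonic bases overlap another gene.

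Asns, asparagine synthetase and a standard readout of ATF4 activity, had 67.5, 105 and 116 CPM under shRad21_2 and 51.5, 66.4 and 64.2 CPM under shRad21_1, against 49.0, 118 and 121 CPM under shNT. All shRad21_2 libraries lay above all shRad21_1 libraries, yet the log2 fold change between them, 0.66 ± 0.31, had an adjusted p of 0.139. The transporter genes were not called in any comparison. Slc7a11, the cystine importer, averaged 97.1 ± 11.2 CPM under shRad21_2, 71.7 ± 10.6 CPM under shRad21_1 and 104 ± 20.8 CPM under shNT. Slc7a5, the light chain of the large neutral amino acid transporter, averaged 298 ± 46.9, 249 ± 24.2 and 336 ± 99.5 CPM in the same order. Slc3a2, the heavy chain that both transporters use, averaged 187 ± 13.8 CPM under each Rad21 hairpin and 217 ± 51.0 CPM under shNT. The cationic amino acid transporter gene Slc7a1 averaged 215 ± 74.6 CPM under shRad21_2, 181 ± 8.43 CPM under shRad21_1 and 175 ± 55.5 CPM under shNT.

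The replicate numbers were also used as a block, in an alternative fit of all libraries. This was done because deviations of same-numbered libraries of shRad21_1 and shNT correlated at 0.24, 0.12 and 0.12. Replicates 2 and 3 correlated across numbers at 0.15 and 0.16, so the shared pattern sets replicate 1 apart and does not tell replicates 2 and 3 from each other. With the block, 3 amino acid genes were lower under shRad21_1 than under shNT, where 0 were called without it, beside 6.05% of all tested genes lower with the block. These were Psph at -0.42 ± 0.11 (adjusted p = 0.0415), Shmt2 at -0.50 ± 0.08 (adjusted p = 0.0114) and Aldh1l2 at -0.70 ± 0.10 (adjusted p = 0.00628), as log2 fold changes in edgeR. With replicates 2 and 3 summed within shNT and within shRad21_1, 0 of the 32 were lower, beside 0.484% of all tested genes, and the adjusted p was 0.454 for Psph, 0.252 for Shmt2 and 0.318 for Aldh1l2.

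**Figure D3:**
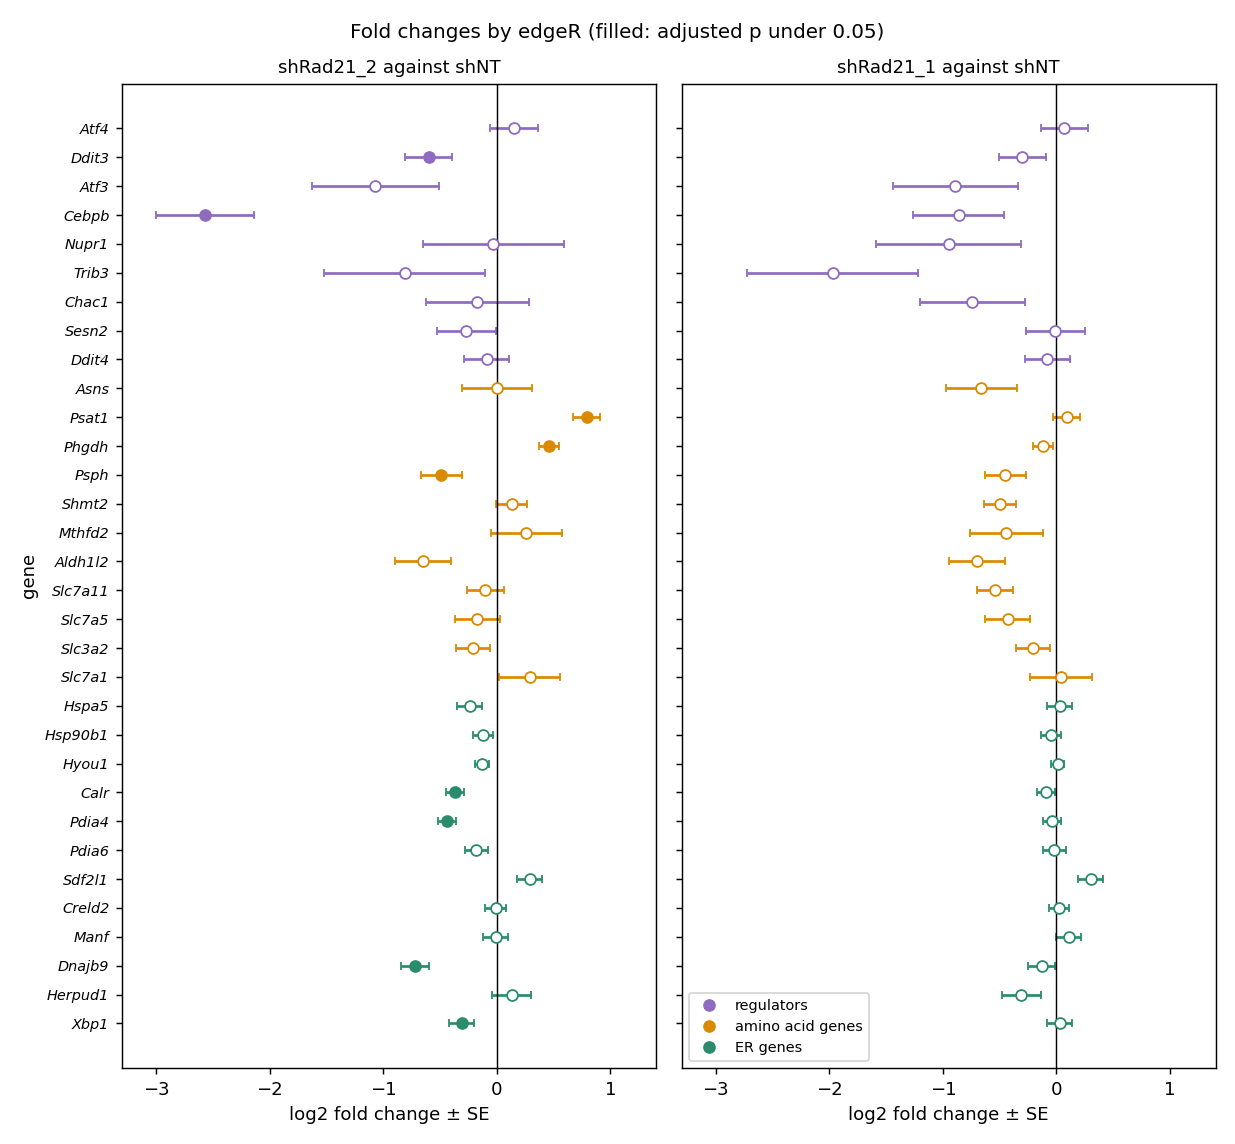
Log2 fold change of each of the 32 genes with its SE, for shRad21_2 against shNT and shRad21_1 against shNT. Filled points are genes at an adjusted p below 0.05. Psat1 and Phgdh are the called genes above 0 against shNT, and Cebpb lies farthest below 0.

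The ER genes that were called were all lower under shRad21_2. The ER stress response element, searched on both strands as CCAAT and CCACG with 9 bases of any kind between them, occurred in 5 of the 28 genes with a window, all of them ER genes, beside 0.119% of all windows. Hsp90b1 has a further match nearer its start, in chr10:86705513-86705571, which is not printed. The variant element II, which is ATTGG and CCACG with 1 base of any kind between them, was found in Herpud1 alone among the 28 and in 0.0365% of all windows. No match of one motif overlapped a match of another in the stretches printed here. They are shown because Calr was the only gene with either element that was called, while no match was found for the called genes Pdia4, Dnajb9 and Xbp1. Windows were found for 10 of the 12 ER genes, and the search took exact letters only. The lack of a match therefore does not show that an element is absent.
Hspa5 chr2:34772005-34772063 (plus strand): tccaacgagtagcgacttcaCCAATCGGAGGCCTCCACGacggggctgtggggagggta
Hsp90b1 chr10:86705618-86705676 (minus strand): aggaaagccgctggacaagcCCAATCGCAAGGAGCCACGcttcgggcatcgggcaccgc
Calr chr8:84847055-84847113 (minus strand): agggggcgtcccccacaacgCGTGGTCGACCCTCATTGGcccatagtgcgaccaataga
Pdia6 chr12:17266471-17266529 (plus strand): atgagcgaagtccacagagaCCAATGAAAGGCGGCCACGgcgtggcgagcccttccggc
Creld2 chr15:88819500-88819558 (plus strand): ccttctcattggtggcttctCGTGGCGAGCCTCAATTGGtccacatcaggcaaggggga
Herpud1 element II chr8:94386357-94386407 (plus strand): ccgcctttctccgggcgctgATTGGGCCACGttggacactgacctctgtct

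Among these, Calr, a lectin chaperone that holds calcium in the ER, lies on chromosome 8 at 84841850-84846934. It had 584, 543 and 676 CPM under shRad21_2 and 707, 729.6 and 746 CPM under shRad21_1, against 759, 787 and 779.7 CPM under shNT. It fell under shRad21_2, with a log2 fold change of -0.37 ± 0.08 against shNT (adjusted p = 0.00642). Pdia4, a protein disulfide isomerase on chromosome 6 at 47796141-47813430, had 175, 154 and 181 CPM under shRad21_2 and 239.7, 224 and 214 CPM under shRad21_1, against 238, 232 and 225 CPM under shNT. Its log2 fold change was -0.44 ± 0.08 against shNT (adjusted p = 0.00173) and -0.41 ± 0.08 against shRad21_1 (adjusted p = 0.00576). For Calr and Pdia4 the shRad21_2 libraries lay below all libraries of both other groups.

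Dnajb9, the co-chaperone ERdj4 and a target of spliced XBP1, had 10.5, 11.1 and 11.6 CPM under shRad21_2 and 15.5, 16.9 and 17.7 CPM under shRad21_1, against 15.5, 19.5 and 19.8 CPM under shNT. The shRad21_2 libraries did not overlap the others, and the log2 fold change was -0.72 ± 0.12 against shNT (adjusted p = 0.00102) and -0.59 ± 0.12 against shRad21_1 (adjusted p = 0.00627). Xbp1, the transcription factor of the IRE1 branch, had 29.5, 35.7 and 40.7 CPM under shRad21_2 and 47.5, 44.7 and 41.9 CPM under shRad21_1, against 42.6, 44.1 and 44.6 CPM under shNT. It fell under shRad21_2, with a log2 fold change of -0.31 ± 0.11 against shNT (adjusted p = 0.0471), and was lower than under shRad21_1 at -0.34 ± 0.11 (adjusted p = 0.0491). The Xbp1 call against shNT did not hold when any shNT library was left out, without shRad21_1 replicate 2 or 3 and without shRad21_2 replicate 1 or 2, with adjusted p of 0.0605 to 0.125. The Xbp1 call between the hairpins held in 5 of 19 alternatives, with adjusted p of 0.0195 to 0.147 over them. Gene counts do not separate spliced from unspliced Xbp1 mRNA.

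The central ER chaperone gene Hspa5 (BiP) had 427, 517 and 571 CPM under shRad21_2 and 651, 588 and 587 CPM under shRad21_1, against 633, 571 and 585 CPM under shNT. Its highest shRad21_2 library tied at this rounding with its lowest shNT library, and the log2 fold change of -0.24 ± 0.11 had an adjusted p of 0.0905. Hsp90b1, the ER form of HSP90, averaged 895 ± 75.6 CPM under shRad21_2, 941 ± 61.5 CPM under shRad21_1 and 974 ± 61.9 CPM under shNT. Hyou1, a large ER chaperone, averaged 194 ± 5.68, 215 ± 10.3 and 212 ± 3.61 CPM in the same order, and its shRad21_2 libraries lay below all shNT libraries without passing the test (adjusted p = 0.133). The disulfide isomerase gene Pdia6 averaged 256 ± 37.8 CPM under shRad21_2, 286 ± 4.11 CPM under shRad21_1 and 289 ± 4.58 CPM under shNT.

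The other ER genes were not uniformly lower. Sdf2l1, a component of an ER chaperone complex, averaged 23.0 ± 3.25 CPM under shRad21_2, 23.3 ± 1.05 CPM under shRad21_1 and 18.8 ± 0.458 CPM under shNT. Both Rad21 hairpins lay above shNT in every library, with log2 fold changes of 0.29 and 0.30 and adjusted p of 0.0535 and 0.106. The secreted stress proteins Manf and Creld2 were nearly level: Manf averaged 131 ± 23.5, 142 ± 3.47 and 131 ± 1.20 CPM, and Creld2 averaged 43.1 ± 4.73, 43.8 ± 0.758 and 43.4 ± 1.47 CPM, under shRad21_2, shRad21_1 and shNT. Herpud1, a factor of ER-associated degradation, averaged 22.8 ± 3.35 CPM under shRad21_2, 16.7 ± 0.535 CPM under shRad21_1 and 20.7 ± 4.96 CPM under shNT, and was the ER gene with an ATF4-type element.

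Set side by side, the amino acid and ER groups differed in their counts. Under shRad21_2 against shNT, 2 of 11 amino acid genes rose and 1 fell, with a median log2 fold change of 0.00, while 0 of 12 ER genes rose and 4 fell, with a median of -0.15. Over all tested genes, 21.1% were called higher and 22.5% lower in this comparison, and the median was 0.01. This contrast depended on single libraries. With 1 library left out, the amino acid median ran from -0.26 to 0.20 and the ER median from -0.23 to -0.09. At its lowest, the amino acid median lay below the lowest ER median. Amino acid genes called lower then ran from 0 to 4, and ER genes called lower from 3 to 6. Against shRad21_1, 3 of 11 amino acid genes were higher under shRad21_2 and 0 lower, with a median of 0.44, and 10 of the 11 had a fold change above 0. In that comparison 0 of 12 ER genes were higher and 4 lower, with a median of -0.15, and 11 of the 12 lay below 0. Over all tested genes 11.9% were called higher and 14.4% lower between the hairpins. With 1 library left out, the medians between the hairpins ran from 0.37 to 0.54 for amino acid genes and from -0.26 to -0.09 for ER genes. Under shRad21_1 against shNT neither group had a called gene, and the medians were -0.44 for amino acid genes and 0.00 for ER genes. The difference between these groups of genes was not tested, since genes are not replicates.

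The groups also differed in how they varied within the shNT libraries. Replicate 1 lay below both other shNT libraries for 8 of 9 regulators and for 10 of 11 amino acid genes, but for 6 of 12 ER genes, beside 42.6% of all tested genes. The median log2 ratio of replicate 1 to the mean of replicates 2 and 3 was -0.71 for regulators, -0.64 for amino acid genes and 0.00 for ER genes. By gene, the mean of replicates 2 and 3 was 14.7 times the value of replicate 1 for Trib3, 11.6 times for Nupr1, 4.83 times for Chac1 and 2.44 times for Asns, but 1.03 times for Phgdh. Under shRad21_2, replicate 1 was lowest for 6 of 9 regulators, 10 of 11 amino acid genes and 9 of 12 ER genes, with median log2 ratios of -0.56, -0.41 and -0.20, beside 31.2% of all tested genes. Under shRad21_1, the counts were 4 of 9, 6 of 11 and 5 of 12, with medians of -0.09, -0.12 and 0.03, beside 44.4% of all tested genes.

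**Figure D4:**
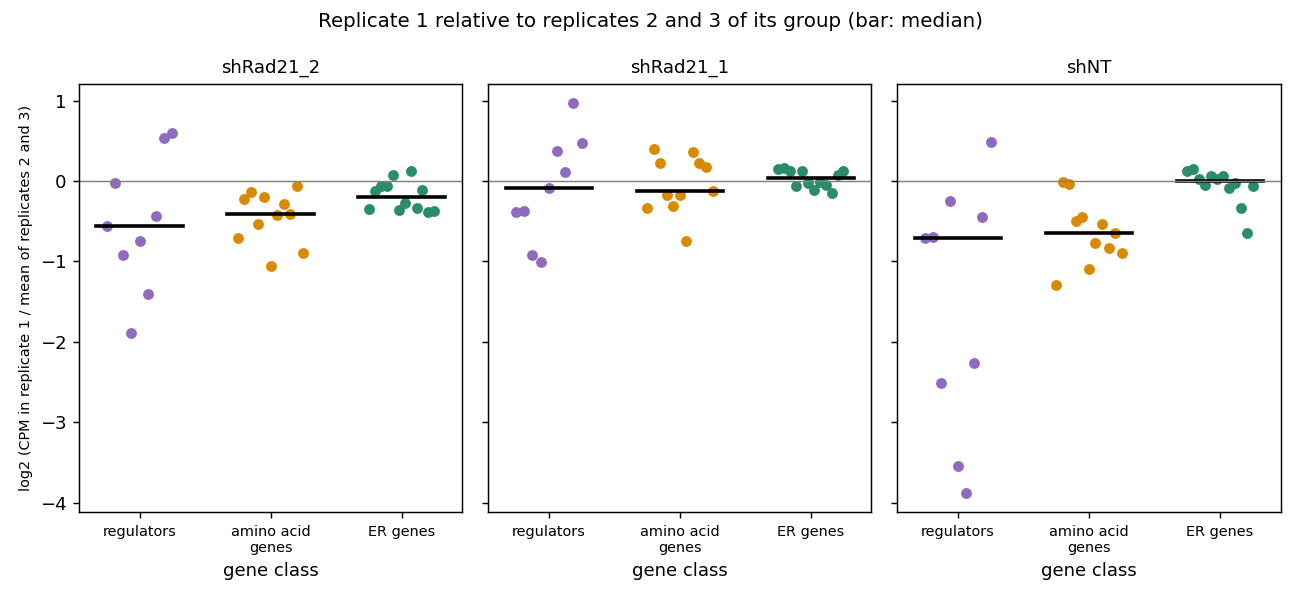
Log2 ratio of replicate 1 to the mean of replicates 2 and 3 in the shRad21_2, shRad21_1 and shNT groups, with points for genes and the class median marked. In the shNT group the regulators and amino acid genes have medians of -0.71 and -0.64, and the ER genes have a median of 0.00.

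Without shNT replicate 1, the calls against shNT moved more than with any other library left out. Under shRad21_1, 9 genes were then lower and 0 higher, where 0 were called with all libraries; 3.95% of all genes tested in that fit were lower. They were the regulators Nupr1, Trib3 and Chac1 and the amino acid genes Asns, Shmt2, Aldh1l2, Slc7a11, Slc7a5 and Slc3a2, with log2 fold changes between -0.40 for Slc3a2 (adjusted p = 0.0382) and -2.50 for Trib3 (adjusted p = 0.0111). No ER gene was among them. Under shRad21_2, 12 genes were then lower and 2 higher, beside 20.8% of all tested genes lower and 18.4% higher. Psat1 and Phgdh stayed higher at 0.79 and 0.45, Trib3, Atf3, Chac1, Aldh1l2, Slc7a5 and Slc3a2 were added on the lower side, and Xbp1 was lost at -0.33 (adjusted p = 0.0746). Whether shNT replicate 1 or the other shNT libraries better stand for the control cells cannot be told from the labels.

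A list of 17 genes of stress sensors and eIF2 control was also followed. It held the eIF2 kinases, Eif2s1, eIF2B subunits, Ppp1r15a, Ppp1r15b, Ern1, Atf6, Atf6b, Mbtps1 and Mbtps2. Not all of these act upstream of ATF4. Under shRad21_2, 3 of the 17 rose and 3 fell against shNT, or 35.3% called, below the 43.6% of all tested genes. Eif2s1, the eIF2 subunit that the stress kinases phosphorylate, rose by 0.39 on the log2 scale (adjusted p = 0.00955), and Eif2ak1, the haem-regulated kinase, rose by 0.20 (adjusted p = 0.0379). Eif2ak2, the kinase PKR, fell with a log2 fold change of -0.70 (adjusted p = 0.000955), and Eif2b2, a subunit of the exchange factor for eIF2, with one of -0.50 (adjusted p = 0.00288). Eif2ak3, the ER stress kinase PERK, named here after its value was seen, also fell, at -0.35 (adjusted p = 0.0243). Under shRad21_1, 0 rose and 1 fell, or 5.88% beside 9.82% of all tested genes. The gene that fell was Eif2b2, at -0.42 (adjusted p = 0.0265). The Eif2ak1 call did not hold when any shNT library was left out, nor without shRad21_1 replicate 2 or 3, or shRad21_2 replicate 1 or 3 (adjusted p up to 0.11). Eif2ak3 missed the threshold when replicate 2 or 3 of shNT, or 1 or 3 of shRad21_2, was left out (adjusted p up to 0.0887). The Eif2b2 call under shRad21_1 was lost without replicate 2 or 3 of either group (adjusted p up to 0.118).

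A list of 19 tested further genes linked to ATF4 had 6 higher and 3 lower under shRad21_2 against shNT, or 47.4%, close to the 43.6% of all tested genes. Mthfd1l, a mitochondrial formate-producing enzyme, rose by 0.90 (adjusted p = 2.68e-05), and Bcat1, the branched-chain aminotransferase, by 0.88 (adjusted p = 0.00165). The alanine aminotransferase gene Gpt2 fell, at -0.51 (adjusted p = 0.000583), as did the lipoprotein receptor gene Vldlr, at -0.99 (adjusted p = 0.00104). Under shRad21_1, 0 rose and 3 fell, or 15.8% called, beside 4.19% of all tested genes higher and 5.63% lower. Of 19 cytosolic aminoacyl-tRNA synthetase genes, which charge tRNAs with amino acids, 5 rose and 0 fell under shRad21_2, or 26.3% beside 21.1% of all tested genes higher and 22.5% lower, with a median of 0.12, and 17 of 19 fold changes were above 0. Vars rose by 0.43 (adjusted p = 0.000919) and Kars by 0.43 (adjusted p = 0.00353). Under shRad21_1, 0 of the 19 were called, beside 9.82% of all tested genes. Between the hairpins all 19 fold changes were above 0, and 4 were called higher, or 21.1% beside 11.9% of all tested genes.

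Further genes of ER folding, translocation and degradation were mostly lower where called. Of 21 tested, 1 rose and 5 fell under shRad21_2, or 28.6% beside 43.6% of all tested genes, with a median of -0.17. Over all tested genes 21.1% were called higher and 22.5% lower, so the lower count was close to the share of all genes. By ranges, 11 of the 21 were lower in every shRad21_2 library than in any shNT library, beside 28.6% of all tested genes. Derl1, a channel component of ER-associated degradation, fell, at -0.60 (adjusted p = 0.000252), and so did Sel1l, an adaptor of the same machinery, at -0.32 (adjusted p = 0.00598). Sec61b, a subunit of the translocation channel, rose by 0.26 (adjusted p = 0.0467). The Sec61b call did not hold when any shNT library was left out, nor without shRad21_1 replicate 2 or 3, or shRad21_2 replicate 2 or 3 (adjusted p up to 0.149). Under shRad21_1, 0 of the 21 were called, beside 9.82% of all tested genes.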

How the data were processed

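RNA-seq of 9 libraries was deposited as a table of whole-number counts per gene. The authors made the counts with FastQC, cutadapt, Trim Galore, Bowtie2 and RSEM on mm10, per the submitters' processing notes; no source used here gives versions, annotation, strand setting or any rounding. Totals ran from 34780003 to 46644607, and 3 counts corresponded to 0.0664 to 0.0880 CPM. Of the 24503 rows, 6715 were 0 in all libraries.

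Genes were filtered with filterByExpr by group, leaving 13560, and scaled with TMM in edgeR 4.0.16 under R 4.3.3. The 9 libraries were fitted together with the quasi-likelihood method, without a minimum fold. P-values were adjusted over all tested genes by Benjamini-Hochberg, and a gene was called at an adjusted p below 0.05. CPM uses TMM-scaled totals, and SE is the absolute log2 fold change over the square root of F. Alternatives were DESeq2 1.42.0, limma 3.58.1 (voom), other scalings, filters and fits, and omission of each library. The fit was tested on simulated data.

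All 32 genes were named. From each further list the text names the 2 genes with the smallest p in each direction among those called under shRad21_2, and others are marked as named after their values were seen. The members and lists were chosen with earlier results of these data known. The replicate numbers come from the sample titles. Deviations of same-numbered libraries correlated at 0.24, 0.12 and 0.12 between shRad21_1 and shNT, although replicates 2 and 3 correlated across numbers at 0.15 and 0.16. For same-numbered libraries the values were 0.06, 0.08 and 0.08 between shRad21_2 and shNT, and 0.09, 0.02 and 0.02 between the hairpins. The main fit used no pairing, and the replicate numbers were a block only in an alternative fit of all libraries.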

Additional observations from a re-analysis of the deposited data

How the results depend on the processing

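Of the 9 genes called under shRad21_2 against shNT, Cebpb, Psat1, Phgdh, Pdia4 and Dnajb9 kept their call and direction in all 19 alternatives. Calr kept it in 18, missing when replicates 2 and 3 were summed within shNT and shRad21_1, Ddit3 in 12, Psph in 11 and Xbp1 in 6. Between the hairpins, Psat1, Phgdh, Shmt2 and Pdia4 kept theirs in all 19, Dnajb9 in 18, Cebpb in 17, Calr in 9 and Xbp1 in 5. Against the 0 higher and 0 lower genes of shRad21_1 against shNT, separate fits of 2 groups gave 1 higher. On the lower side, library-total scaling gave 1, no filter 2, DESeq2 3 and the replicate block 3. Over all tested genes, 8.35% were lower in DESeq2 and 6.05% with the block. Leaving out the first libraries of shNT and shRad21_1 together gave 11 lower, and leaving out 1 library gave 0 to 9. Over all tested genes, the fit without both first libraries called 1577 in either direction, beside 1331 in the main fit. The number lower in that fit is not given, so its 11 lower of 32 cannot be set against a share of all genes. Without shNT replicate 1, where 9 of the 32 were lower, 3.95% of all tested genes were lower. For shRad21_2 against shNT, with 2 higher and 7 lower, summing the close pairs gave 3 lower, leaving out both first libraries 12, and leaving out 1 library 2 to 3 higher and 4 to 12 lower. Over all tested genes, summing called 3707 in either direction, beside 5917 in the main fit. Shares by direction are not given for the summed fit or the fit without both first libraries. The 3 and 12 lower can therefore not be set against them. Without shNT replicate 1, 20.8% of all tested genes were lower. Between the hairpins, with 3 higher and 5 lower, the replicate block gave 5 higher and both first libraries out 8 higher. No filter gave 3 lower, separate fits 3 and summed pairs 1, and leaving out 1 library gave 3 to 8 higher and 2 to 7 lower. Over all tested genes, the block called 3643 in either direction between the hairpins and summed pairs 1270, beside 3563 in the main fit. With the block, shRad21_2 against shNT had 2 higher and 7 lower, but Xbp1 was lost (adjusted p = 0.0569) and Aldh1l2 gained (adjusted p = 0.00161). Chac1 under shRad21_2, not called at -0.17, turned to 0.06 in limma-voom, 0.09 with summed pairs and 0.26 without shNT replicate 3, with a range of -0.60 to 0.26 over omission of 1 library. Where no share of all tested genes by direction stands beside a count in this paragraph, the count cannot be read as particular to the 32 genes. The causes were not tested, and omission and summing also leave fewer libraries.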

Other observations

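Genes of other stress programmes moved in both directions under shRad21_2, where 43.6% of all tested genes were called. Of 10 heat shock genes, 1 rose and 2 fell against shNT: Hspd1, the mitochondrial chaperonin, rose by 0.31 on the log2 scale (edgeR, adjusted p = 0.0241), while Hsph1, an HSP110 chaperone, and Hspa1a, an inducible HSP70, fell, at -0.46 (adjusted p = 0.00925) and -0.66 (adjusted p = 0.0365). Of 10 genes of the NRF2 antioxidant response, 3 rose and 2 fell, or 50%. Gclc, the catalytic subunit of glutathione synthesis, rose by 0.59 (adjusted p = 0.00378) and Txnrd1, thioredoxin reductase, by 0.32 (adjusted p = 0.0139). The quinone reductase gene Nqo1 fell, at -1.57 (adjusted p = 0.000211), and the haem oxygenase gene Hmox1 fell, at -0.80 (adjusted p = 0.0288). Under shRad21_1 against shNT, Nqo1 was lower at -0.85 (adjusted p = 0.0213), and no other gene of these lists was called, beside 9.82% of all tested genes. Without shNT replicate 2 the calls under shRad21_2 were lost for Hspd1 (adjusted p = 0.0966), Hspa1a (adjusted p = 0.136), Txnrd1 (adjusted p = 0.0629) and Hmox1 (adjusted p = 0.0949), and without shNT replicate 3 for the same genes (adjusted p = 0.0866, 0.0907, 0.0574 and 0.073). Leaving out shRad21_2 replicate 3 also ended the calls of Hspd1, Hspa1a and Hmox1, and replicate 2 those of Hspa1a and Hmox1. Without shRad21_2 replicate 1 Hmox1 had an adjusted p of 0.0501, and without shRad21_1 replicate 2 Hspa1a had one of 0.0504. Nqo1 under shRad21_1 was not called without replicate 2 or 3 of either group (adjusted p up to 0.097).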
